A study of Mus musculus with 9 samples.

Results

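The Nodal pathway genes *Nodal*, *Lefty1*, *Lefty2*, *Tdgf1*, *Cer1*, *Foxh1*, *Smad7*, *Acvr1b* and *Acvr2b* were followed in mouse embryoid bodies (EBs), the aggregates in which embryonic stem (ES) cells start to differentiate. These 9 genes were taken by symbol from a table of 55471 gene IDs, and each symbol matched 1 ID. RNA was sequenced from 9 libraries, 3 in each of 3 groups. WT EBs came from the parental ES cell line E-14, and the group named KO came from *Tnfaip2*-/- cells, which descended from 1 CRISPR-Cas9 clone of that line with an early stop codon in *Tnfaip2*. The group named KO_PAPC was the same clone with a supplement of palmitic acid plus palmitoyl-L-carnitine (PA/PC), each at 8 µM. In all 3 groups, hanging drops of 1000 cells were kept for 3 days and the EBs then spent 3 days on gelatin before harvest. The study's methods form EBs in ES cell medium, but describe fibroblast (MEF) medium with PA/PC while treated cells formed EBs. A figure legend instead describes PA/PC or vehicle given to differentiation-induced EBs. If the media differed as in the methods, effects of medium and PA/PC cannot be told apart in KO_PAPC. The study asked whether loss of *Tnfaip2* impairs differentiation and whether the lipid supplement restores it. Because KO is a single clone, an effect of the mutation and one of the clone cannot be told apart. Transcripts of *Tnfaip2* were near the detection floor, with at most 16 counts in a WT library, 8 in KO and 25 in KO_PAPC, so its level could not serve to check the labels.

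Nodal is a secreted protein of the TGF-β family that acts through activin receptors and the transcription factors Smad2 and Smad3, and it needs an EGF-CFC coreceptor at the cell surface. In the early embryo it keeps the epiblast from premature neural differentiation, patterns the primitive streak and induces mesendoderm. Among its targets are its own gene and those of the Lefty proteins, diverged family members that are secreted and block Nodal, so that the pathway contains both a positive and a negative feedback loop.

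All 9 genes are protein coding in the GENCODE annotation of mouse build GRCm38. *Nodal* (ENSMUSG00000037171) lies on chromosome 10, from 61417972 to 61425338. *Lefty2* (ENSMUSG00000066652, 180893108 to 180899103) and *Lefty1* (ENSMUSG00000038793, 180935022 to 180938400) lie in the same orientation on chromosome 1, 35918 bases apart. The coreceptor gene *Tdgf1* (ENSMUSG00000032494), also known as Cripto, lies on chromosome 9 from 110939603 to 110946158. *Acvr2b* (ENSMUSG00000061393) is on the same chromosome from 119402118 to 119434995. *Acvr1b* (ENSMUSG00000000532, 101174067 to 101213684) and *Foxh1* (ENSMUSG00000033837, 76668225 to 76669948) are on chromosome 15. *Cer1* (ENSMUSG00000038192) spans 82881751 to 82885148 of chromosome 4, and *Smad7* has the ID ENSMUSG00000025880. No exon of these genes overlapped an exon of another gene.

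Reads from near-identical copies can be confused, so the Lefty pair was compared first. The coding sequences of *Lefty1* and *Lefty2* were each 1104 bases long and were identical at 1014 positions (91.8%), with a longest identical run of 140 bases. Of the 51-base words in the transcripts of *Lefty1*, as long as the reads, 17.5% also occurred in *Lefty2*, and 11.7% of those of *Lefty2* occurred in *Lefty1*. Reads that mapped to several places had been left out of the counts, so both genes were counted from the sequence that tells them apart. For *Tdgf1*, 8.74% of the words also occurred in the processed pseudogene *Tdgf1-ps1*. *Cer1* shared 1.72% of its words with other genes, and the other 5 members shared none.

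The region upstream of the start is given for the ligand and its coreceptor, whose transcripts went the same way in KO EBs and under PA/PC. The 250 bases before the start are of RefSeq for GRCm38.p6, at chr10:61417722-61417971 on the plus strand for *Nodal* and chr9:110946159-110946408 on the minus strand for *Tdgf1*. Capitals mark the Smad box CAGAC, which occurs in the *Tdgf1* stretch and not in that of *Nodal*.
Nodal: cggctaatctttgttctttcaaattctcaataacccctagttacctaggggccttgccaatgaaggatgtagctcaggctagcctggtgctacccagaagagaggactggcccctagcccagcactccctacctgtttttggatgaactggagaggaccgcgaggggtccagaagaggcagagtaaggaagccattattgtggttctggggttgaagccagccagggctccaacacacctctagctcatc
Tdgf1: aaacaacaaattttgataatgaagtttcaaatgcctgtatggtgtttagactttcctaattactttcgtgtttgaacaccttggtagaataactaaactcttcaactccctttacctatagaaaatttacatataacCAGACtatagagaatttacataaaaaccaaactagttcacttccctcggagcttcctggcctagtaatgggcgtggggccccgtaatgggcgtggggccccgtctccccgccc

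In RefSeq windows of 300 bases, from 250 before to 50 after the start, 4 motifs were searched on both strands in the 5 members with an entry (*Nodal*, *Tdgf1*, *Cer1*, *Acvr1b* and *Acvr2b*). The FOXH1 motif AATCCACA was in none of the 5 windows, and it was present in 0.855% of 32851 windows of the same length. The octamer ATGCAAAT was also in none, against 1.74% of all windows. Only exact strings were searched, so variant sites and sites outside the windows would have been missed. CAGAC, which 49.6% of all windows held, occurred once each in *Tdgf1* (at -113 from the start), *Cer1* (at -213) and *Acvr2b* (at -233). The GC-rich Smad motif GGCGCC occurred once, in *Acvr1b* (at 19 after the start), against 11.9% of all windows. The windows of both receptor genes were rich in G and C, at 79.7% for *Acvr1b* and 73.3% for *Acvr2b*, while *Nodal* had 54.0%, *Tdgf1* 41.7% and the median window 52.7%.

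Each library held between 27362913 and 28914312 counts, and replicates lay close together, with a biological coefficient of variation of 2.09% to 2.65% in the 3 comparisons. Levels are given as CPM, counts brought to a common library total, after TMM scaling, which sets the bulk of genes to the same level in every library. The study's methods call the libraries of a group biological replicates, and a figure legend describes those of KO with and without PA/PC as independent EB pools. The p-values thus measure the spread between such samples of 1 clone or line. Differences are those of the first group named relative to the second. Without the TMM step the KO_PAPC libraries read lower. Scaling by library totals moved the median over all genes of the log2 fold change from -0.02 to -0.18 in both contrasts with KO_PAPC.

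In KO versus WT EBs, *Nodal*, both Lefty genes, *Tdgf1*, *Foxh1*, *Smad7* and *Acvr1b* were lower and *Acvr2b* was higher. The falls of *Lefty1* and *Foxh1* were the largest among the members. Calls were made below an adjusted p of 0.05 in edgeR's quasi-likelihood test with Benjamini-Hochberg adjustment over all genes tested. By that rule 8 of the 9 members were called, 7 lower and 1 higher, while *Cer1* was below the expression filter. Of all 17355 genes tested, 73.8% were called, 37.1% lower and 36.8% higher, so a call by itself did not set the members apart. The values of the members did not overlap between groups for 8 genes between KO and WT, 7 between KO_PAPC and KO and 6 between KO_PAPC and WT, where this held for 75.3%, 82.2% and 72.6% of all genes tested. The median log2 fold change of the 8 members was -0.50, beside -0.01 over all genes tested. In EBs, which mix cell types, fewer cells of a type and less RNA per cell cannot be told apart.

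When KO EBs were grown with PA/PC, 5 members were higher than in KO alone (*Nodal*, *Lefty1*, *Lefty2*, *Tdgf1* and *Foxh1*) and 2 were lower (*Smad7* and *Acvr1b*). *Acvr2b* was not called. Over all 17167 genes tested, 81.8% were called, 39.6% higher and 42.2% lower. With scaling by library totals the calls over all genes changed from 6801 higher and 7246 lower to 5317 higher and 8684 lower. The median log2 fold change of the 8 members was 0.66, beside -0.02 over all genes tested. Between KO_PAPC and WT, 6 members were called, with *Lefty1*, *Tdgf1*, *Foxh1* and *Acvr2b* higher and *Smad7* and *Acvr1b* lower in KO_PAPC. With scaling by library totals all 8 were called, 4 higher and 4 lower. There 70.6% of 16655 genes were called, 34.2% higher and 36.4% lower, and scaling by library totals changed 5693 higher and 6067 lower calls to 3616 and 8341. The 3 comparisons share libraries, so their values are set side by side and were not tested against each other.

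**Figure D1:**
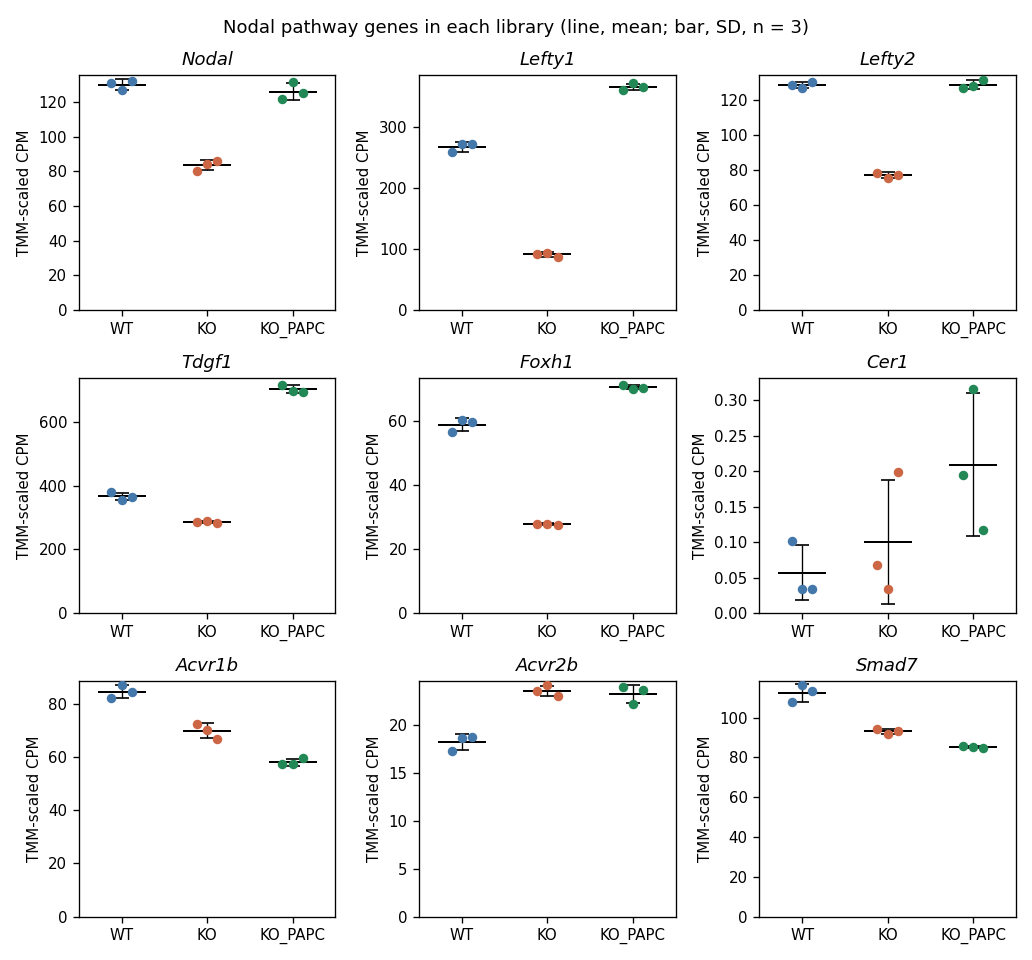
TMM-scaled CPM (y axes, linear, from 0) of the 9 genes in each library of WT, KO and KO_PAPC EBs (x axes), with points for libraries, lines for means and bars for the SD of 3 libraries. *Nodal* and *Lefty2* are low in KO and alike in WT and KO_PAPC, *Lefty1*, *Tdgf1* and *Foxh1* are highest in KO_PAPC, and *Cer1* stays under 0.4 CPM.

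The ligand gene *Nodal* was at 131.2, 126.7 and 132.4 CPM in the WT libraries. In KO it was at 80.4, 84.4 and 85.9 CPM. In KO_PAPC it was at 121.9, 131.3 and 125.0 CPM. All KO libraries lay below all others, and the ranges of WT and KO_PAPC overlapped. The group means were 130.1 ± 3.01 (SD, n = 3), 83.6 ± 2.85 and 126.1 ± 4.82 CPM for WT, KO and KO_PAPC. The log2 fold change was -0.64 ± 0.0308 (SE) between KO and WT (edgeR, adjusted p = 3.73e-19) and 0.59 ± 0.0339 between KO_PAPC and KO (edgeR, adjusted p = 4.39e-18). The fall was 1.56-fold, and 71.7% of tested genes changed by less in KO versus WT. Against WT, KO_PAPC differed by -0.05 ± 0.0342 (edgeR adjusted p = 0.164). That difference was called without KO_PAPC replicate 2 (log2 fold change of -0.08, edgeR adjusted p = 0.0461) and with scaling by library totals (log2 fold change of -0.22, edgeR adjusted p = 3.46e-06), where the whole distribution was lower.

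*Lefty1*, the first of the secreted antagonists, had the largest change of the tested members both in KO against WT and with PA/PC against KO. Between KO_PAPC and WT the changes of *Tdgf1* and *Acvr1b* were larger. It was at 259.0, 272.8 and 272.9 CPM in WT, at 92.5, 94.3 and 87.6 CPM in KO, and at 361.4, 372.2 and 366.6 CPM in KO_PAPC. The 3 groups did not overlap, with KO lowest and KO_PAPC highest. Means were 268.2 ± 8.00 (SD, n = 3), 91.5 ± 3.46 and 366.7 ± 5.37 CPM for WT, KO and KO_PAPC. *Lefty1* fell 2.94-fold in KO versus WT (log2 fold change of -1.55 ± 0.0293 (SE), edgeR adjusted p = 8.83e-31). In that comparison 93.0% of tested genes changed by less. In KO_PAPC versus KO it was 3.998-fold higher (log2 fold change of 2.00 ± 0.0297, edgeR adjusted p = 2.19e-36), and it ended 1.36-fold above WT (log2 fold change of 0.44 ± 0.0282, edgeR adjusted p = 5.18e-13).

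*Lefty2*, which encodes the other Lefty protein, changed by amounts close to those of *Nodal*. The WT libraries held 128.4, 126.8 and 130.0 CPM, the KO libraries 78.5, 75.5 and 77.3 CPM and the KO_PAPC libraries 126.9, 127.6 and 131.4 CPM. KO lay below the other groups, while WT and KO_PAPC overlapped. Means were 128.4 ± 1.597 CPM (SD, n = 3), 77.1 ± 1.499 CPM and 128.6 ± 2.42 CPM in that order. The log2 fold change was -0.74 ± 0.0296 (SE) between KO and WT (edgeR, adjusted p = 2.28e-21) and 0.73 ± 0.0319 between KO_PAPC and KO (edgeR, adjusted p = 7.96e-22). KO_PAPC and WT differed by -0.0059 ± 0.0313 on the log2 scale (edgeR adjusted p = 0.873), a value whose sign depended on the setting and which scaling by library totals turned into a call of -0.17 (edgeR adjusted p = 2.91e-05).

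*Cer1* encodes Cerberus-like, a secreted antagonist of Nodal and BMP proteins made by the anterior visceral endoderm. It had 3, 1 and 1 counts in WT, 2, 1 and 6 in KO, and 5, 8 and 3 in KO_PAPC. Counts this low passed the expression filter of none of the 3 comparisons. When every gene with at least 1 count was tested, *Cer1* was called higher in KO_PAPC than in WT (log2 fold change of 1.79 ± 0.720 (SE), edgeR adjusted p = 0.0383). It was then not called in KO versus WT (0.76 ± 0.852, edgeR adjusted p = 0.490) or in KO_PAPC versus KO (1.03 ± 0.632, edgeR adjusted p = 0.195). The call for *Cer1* therefore depended on the filter, and 1 WT and 1 KO_PAPC library had the same count of 3.

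The ratio of antagonist to ligand within a library was compared on levels per kilobase of exon, TMM-scaled CPM divided by exon length. *Lefty1* stood to *Nodal* at 2.35, 2.57 and 2.46 in WT, at 1.37, 1.33 and 1.22 in KO, and at 3.53, 3.38 and 3.49 in KO_PAPC. The ratio was lowest in KO and highest in KO_PAPC, with no overlap. *Lefty2* stood to *Nodal* at 0.785, 0.803 and 0.788 in WT, at 0.783, 0.718 and 0.722 in KO, and at 0.835, 0.780 and 0.843 in KO_PAPC. This second ratio differed by at most 1.11-fold in any comparison. *Lefty1* stood to *Lefty2* at a mean of 3.102 ± 0.100 (SD, n = 3), 1.76 ± 0.0868 and 4.24 ± 0.0937 for WT, KO and KO_PAPC, so the paired genes did not keep their proportion. Reads that the Lefty genes share were not counted, so full exon length understates both by an amount that was not measured. The absolute size of these ratios is therefore not settled on this scale.

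The coreceptor also shifted against its ligand. *Tdgf1* stood to *Nodal* at 2.25 ± 0.0598 (SD, n = 3), 2.74 ± 0.102 and 4.45 ± 0.229 for WT, KO and KO_PAPC. Reads that *Tdgf1* shares with *Tdgf1-ps1* were not counted either, so full exon length also understates *Tdgf1*. Type I to type II receptor, *Acvr1b* to *Acvr2b*, stood at 4.14 ± 0.117 in WT, 2.64 ± 0.0934 in KO and 2.22 ± 0.0835 in KO_PAPC. Over 5 ratios and 3 comparisons, 15 exact two-sided permutation tests were made. With 3 libraries against 3 the smallest p they allow is 0.1, and 13 tests reached it (adjusted p = 0.115). The other 2 were *Lefty2* to *Nodal* in KO_PAPC versus KO (exact permutation p = 0.2) and in KO_PAPC versus WT (exact permutation p = 0.4).

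**Figure D2:**
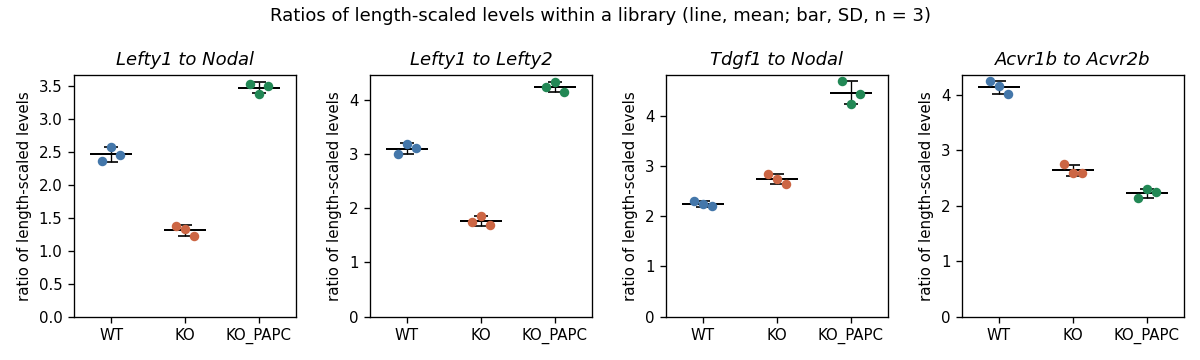
Ratios of length-scaled levels within each library (y axes, no unit, from 0) for 4 pairs of genes in WT, KO and KO_PAPC EBs (x axes), with points for libraries, lines for means and bars for the SD of 3 libraries. Both *Lefty1* ratios are lowest in KO and highest in KO_PAPC, *Tdgf1* to *Nodal* rises from WT through KO to KO_PAPC, and *Acvr1b* to *Acvr2b* falls in that order.

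*Tdgf1* encodes Cripto, the membrane-anchored EGF-CFC protein that lets Nodal engage its receptors and is abundant in pluripotent cells. It was at 379.5, 355.2 and 363.2 CPM in WT, at 286.0, 289.7 and 283.8 CPM in KO, and at 715.4, 696.1 and 694.2 CPM in KO_PAPC. The 3 groups did not overlap, and KO_PAPC was far above the others. Means were 366.0 ± 12.4 (SD, n = 3), 286.5 ± 3.00 and 701.9 ± 11.7 CPM for WT, KO and KO_PAPC. The fall in KO was a log2 change of -0.36 ± 0.0245 (SE, edgeR adjusted p = 6.96e-15), near the middle of all tested genes, since 49.8% changed by less. PA/PC was accompanied by a 2.44-fold rise over KO (log2 fold change of 1.29 ± 0.0248, edgeR adjusted p = 6.57e-33). KO_PAPC was 1.91-fold above WT (log2 fold change of 0.93 ± 0.0289, edgeR adjusted p = 3.37e-19), and 84.8% of tested genes differed by less.

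The pseudogene *Tdgf1-ps1*, which shares words with *Tdgf1*, went the same way at a lower level, from 26.1 ± 0.664 CPM (SD, n = 3) in WT to 22.8 ± 0.258 CPM in KO and 44.3 ± 1.48 CPM in KO_PAPC. How far its reads came from *Tdgf1* was not tested. *Tdgf1-ps2* had 0 counts in every library.

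*Foxh1* encodes the forkhead protein that takes Smad complexes to DNA at Nodal targets. It was at 56.6, 60.4 and 59.9 CPM in WT, at 28.03, 27.96 and 27.56 CPM in KO, and at 71.4, 70.3 and 70.4 CPM in KO_PAPC. The groups did not overlap, with the same order as for *Lefty1*. Means were 59.0 ± 2.06 (SD, n = 3), 27.9 ± 0.253 and 70.7 ± 0.600 CPM for WT, KO and KO_PAPC. *Foxh1* fell 2.12-fold in KO (log2 fold change of -1.08 ± 0.0408 (SE), edgeR adjusted p = 3.64e-22). With PA/PC it was 2.53-fold above KO (log2 fold change of 1.34 ± 0.0405, edgeR adjusted p = 1.01e-26) and 1.19-fold above WT (log2 fold change of 0.25 ± 0.0375, edgeR adjusted p = 1.55e-06).

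Neither receptor gene nor the inhibitor showed the fall in KO and rise with PA/PC of the other 5 tested members. *Acvr1b* encodes ALK4, the type I receptor kinase that phosphorylates Smad2 and Smad3. It was at 82.3, 87.0 and 84.6 CPM in WT, at 72.6, 70.2 and 66.9 CPM in KO, and at 57.4, 57.2 and 59.6 CPM in KO_PAPC. The groups did not overlap and fell in that order, from 84.6 ± 2.36 (SD, n = 3) through 69.9 ± 2.84 to 58.1 ± 1.35 CPM. *Acvr1b* was thus further from WT in KO_PAPC than in KO. The log2 fold change was -0.28 ± 0.0341 (SE) between KO and WT (edgeR, adjusted p = 7.55e-09), -0.27 ± 0.0380 between KO_PAPC and KO (edgeR, adjusted p = 5.18e-08) and -0.55 ± 0.0368 between KO_PAPC and WT (edgeR, adjusted p = 1.34e-12).

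*Smad7* encodes an inhibitory Smad that competes for type I receptors and marks them for degradation, and its gene is itself induced by TGF-β family signals. It was at 107.8, 116.3 and 113.2 CPM in WT, at 94.1, 91.9 and 93.2 CPM in KO, and at 86.0, 85.1 and 84.7 CPM in KO_PAPC. As for *Acvr1b*, the groups did not overlap and KO_PAPC was lowest, with means of 112.4 ± 4.29 (SD, n = 3), 93.1 ± 1.10 and 85.3 ± 0.643 CPM. The log2 fold change was -0.27 ± 0.0308 (SE) between KO and WT (edgeR, adjusted p = 1.07e-09), -0.13 ± 0.0323 between KO_PAPC and KO (edgeR, adjusted p = 4.11e-04) and -0.41 ± 0.0346 between KO_PAPC and WT (edgeR, adjusted p = 1.37e-10). Its change under PA/PC was among the smaller ones, since only 13.5% of tested genes changed by less.

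*Acvr2b* encodes a type II activin receptor, which binds the ligand and activates the type I receptor. It was at 17.3, 18.6 and 18.8 CPM in WT, at 23.5, 24.2 and 23.1 CPM in KO, and at 24.0, 22.2 and 23.7 CPM in KO_PAPC. All WT libraries lay below all libraries of the other groups, and KO and KO_PAPC overlapped. Means were 18.2 ± 0.834 (SD, n = 3), 23.6 ± 0.540 and 23.3 ± 0.963 CPM. The log2 fold change was 0.37 ± 0.0531 (SE) between KO and WT (edgeR, adjusted p = 1.58e-07) and 0.35 ± 0.0572 between KO_PAPC and WT (edgeR, adjusted p = 7.96e-06). With PA/PC it changed by -0.02 ± 0.0533 against KO (edgeR adjusted p = 0.702), and scaling by library totals gave a call of -0.19 (edgeR adjusted p = 0.00156). *Acvr2b* was thus the 1 member that was higher in KO than in WT, and it was also above WT in KO_PAPC.

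**Figure D3:**
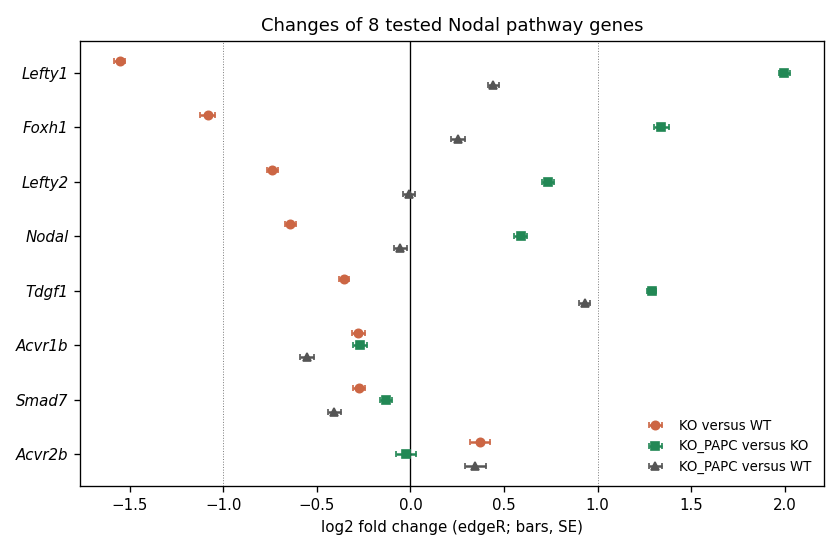
Log2 fold changes (x axis) of the 8 tested members (y axis) in KO versus WT (circles), KO_PAPC versus KO (squares) and KO_PAPC versus WT (triangles), with bars for the SE and dotted lines at a 2-fold change. *Lefty1*, *Foxh1*, *Lefty2*, *Nodal* and *Tdgf1* are left of 0 for KO and right of 0 for PA/PC, while *Acvr1b* and *Smad7* are left of 0 in all 3 comparisons.

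The scaling mattered for the size of several differences of KO_PAPC. With library totals the log2 fold change against WT went from 0.44 to 0.28 for *Lefty1*, from 0.25 to 0.09 for *Foxh1* and from 0.35 to 0.18 for *Acvr2b*. Against KO it went from -0.13 to -0.30 for *Smad7* and from -0.27 to -0.44 for *Acvr1b*. These 5 differences stayed called and kept their direction in edgeR.

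Since so many genes were called, the members were also tested against a minimum fold change of 2 with edgeR. In KO versus WT, 9.14% of all genes passed, 5.36% higher and 3.79% lower, and *Lefty1* was the 1 member that did (adjusted p = 2.02e-18), while *Foxh1* did not (adjusted p = 0.0694). In KO_PAPC versus KO, 20.7% of all genes passed, 6.26% higher and 14.4% lower, and 3 members were among the higher ones. These were *Lefty1* (adjusted p = 8.83e-28), *Tdgf1* (adjusted p = 8.60e-14) and *Foxh1* (adjusted p = 5.84e-10). In KO_PAPC versus WT, 8.02% of all genes passed, 0.961% higher and 7.05% lower, and 0 members did, with 0 also at an unadjusted p under 0.05. DESeq2 was not run with a minimum fold change.

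Compared per kilobase of exon, the order of the members' levels changed between groups. In WT, *Lefty1* led at 152.6 ± 4.55 CPM per kilobase (SD, n = 3), followed by *Tdgf1* at 139.6 ± 4.73, *Nodal* at 62.1 ± 1.44 and *Lefty2* at 49.2 ± 0.612. *Foxh1*, *Smad7*, *Acvr1b* and *Acvr2b* came next, down to 4.64 ± 0.212 CPM per kilobase. In KO, *Tdgf1* led at 109.3 ± 1.14 CPM per kilobase, ahead of *Lefty1* at 52.0 ± 1.97. *Tdgf1* also led in KO_PAPC, at 267.7 ± 4.48 CPM per kilobase, ahead of *Lefty1* at 208.6 ± 3.05. *Foxh1* took the fourth place from *Lefty2* in KO_PAPC, at 51.8 ± 0.440 against 49.3 ± 0.928 CPM per kilobase of full exon length. That swap cannot be settled on this scale, because reads that *Lefty2* shares with *Lefty1* were not counted. Of the words of *Lefty2*, 11.7% also occurred in *Lefty1*, while 0% of those of *Foxh1* occurred in another gene. Full length therefore understates *Lefty2* relative to *Foxh1*, by an amount that was not measured. By full exon length, neighbours in the order did not overlap between libraries of a group, except *Smad7* at 20.6 ± 0.242 and *Foxh1* at 20.4 ± 0.186 CPM per kilobase in KO. *Cer1* was last in each group, at no more than 0.182 CPM per kilobase in any library.

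The genes around the Lefty pair on chromosome 1 were examined within 100 kilobases. *Tmem63a*, on the far side of *Lefty1*, changed by -0.57 on the log2 scale in KO (edgeR adjusted p = 2.03e-10) and by 0.93 with PA/PC (edgeR adjusted p = 3.26e-17). The histone gene *H3f3a* changed by -0.31 (edgeR adjusted p = 6.26e-10) and 0.95 (edgeR adjusted p = 3.92e-24). Both genes fell and rose like the Lefty pair, but not every neighbour did. *Ephx1*, an epoxide hydrolase gene, rose by 0.65 in KO (edgeR adjusted p = 2.65e-11) and fell by 2.26 on the log2 scale with PA/PC (edgeR adjusted p = 9.84e-24). *Sde2* rose by less than 0.1 in both comparisons (edgeR adjusted p = 0.00331 and 0.00787).

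The rest of the Nodal and activin pathway was described by a list of 38 further genes in 8 roles. In KO versus WT, 35 of them could be tested and 27 were called (77.1%, beside 73.8% of all genes tested), 22 lower and 5 higher, with a median log2 fold change of -0.31. In KO_PAPC versus KO, 28 of 35 were called (80.0%, beside 81.8% of all genes), 18 higher and 10 lower, with a median of 0.33. In KO_PAPC versus WT, 28 of 34 were called (82.4%, beside 70.6% of all genes), 19 higher and 9 lower, with a median of 0.22. With scaling by library totals the list split into 18 higher and 15 lower against KO. Against WT the KO_PAPC libraries then had 15 of these genes called higher and 14 lower, so the excess of higher calls was mostly lost. The medians over all genes tested lay between -0.02 and 0 in each comparison. The values below are TMM-scaled CPM as mean ± SD of 3 libraries and edgeR log2 fold changes.

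Among other ligands, *Gdf3*, a family member that also uses Cripto, was at 69.4 ± 1.32, 63.7 ± 1.21 and 96.1 ± 4.16 CPM for WT, KO and KO_PAPC. Its fall in KO was small (log2 fold change of -0.12, adjusted p = 0.00129) and its rise with PA/PC larger (0.59, adjusted p = 1.96e-17). *Inhbb*, the activin B subunit, went another way, at 9.77 ± 1.11, 9.87 ± 0.736 and 2.87 ± 0.667 CPM for WT, KO and KO_PAPC. It was not called between KO and WT (adjusted p = 0.890) and fell by 1.78 on the log2 scale with PA/PC (adjusted p = 1.09e-16). *Inhba*, the activin A subunit, had at most 5 counts in a library and *Gdf1*, which forms dimers with Nodal, had 0 counts in all 9, so neither was tested. Reads that overlapped several genes had not been counted, so the 0 of *Gdf1* does not show that it was silent.

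The convertases that cleave the Nodal precursor fell at both steps. *Furin* was at 74.7 ± 3.14, 56.3 ± 1.02 and 42.8 ± 1.78 CPM for WT, KO and KO_PAPC, and *Pcsk6* at 75.0 ± 1.84, 48.5 ± 0.610 and 26.2 ± 1.53 CPM. In KO_PAPC against WT the log2 fold change was -0.81 for *Furin* (adjusted p = 9.16e-15) and -1.52 for *Pcsk6* (adjusted p = 1.18e-19). The type II receptor gene *Acvr2a* was not called in any of the 3 comparisons (log2 fold changes of 0.10, -0.12 and -0.03, adjusted p = 0.0912, 0.0522 and 0.719), but scaling by library totals called it lower in KO_PAPC than in KO (-0.29, adjusted p = 2.58e-05) and in WT (-0.19, adjusted p = 0.00805). *Acvr1c*, the gene of the type I receptor ALK7, had at most 3 counts in a library. *Cfc1*, the other EGF-CFC coreceptor, had 22, 19 and 14 counts in KO against at most 6 in any other library. It was called higher in KO than in WT (log2 fold change of 2.88 ± 0.506 (SE), adjusted p = 5.64e-06) and lower with PA/PC (-2.92 ± 0.474, adjusted p = 8.71e-07), the reverse of *Tdgf1* at a far lower level.

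Of the other extracellular antagonists, 3 of 4 fell in KO and the same number rose with PA/PC. The share called was 75.0% in both comparisons, beside 73.8% and 81.8% of all genes tested. *Fst*, the gene of the activin-binding protein follistatin, was at 26.5 ± 1.82, 4.17 ± 0.291 and 37.7 ± 1.26 CPM for WT, KO and KO_PAPC. It changed by -2.66 on the log2 scale in KO (adjusted p = 1.10e-25) and by 3.17 with PA/PC (adjusted p = 4.09e-31), both larger than those of *Lefty1*. *Dand5*, a Nodal antagonist of the Cerberus family, was low but followed the same course, at 2.94 ± 0.243, 1.24 ± 0.343 and 3.08 ± 0.204 CPM. *Tmeff1*, whose product binds Cripto, was at 281.2 ± 7.73, 207.8 ± 2.21 and 319.5 ± 6.80 CPM. *Fstl3* was below 1.1 CPM and was called in KO_PAPC versus WT alone (log2 fold change of 0.85, adjusted p = 0.00898).

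Of the Smad genes, *Smad2* was not called in any comparison, with means of 82.4 ± 2.60, 80.4 ± 1.28 and 82.4 ± 0.147 CPM for WT, KO and KO_PAPC. Scaling by library totals called it lower in KO_PAPC, by -0.14 against KO (adjusted p = 3.43e-04) and -0.17 against WT (adjusted p = 1.02e-04). *Smad4*, the shared partner of the receptor-activated Smads, was at 126.7 ± 3.54, 88.4 ± 2.34 and 163.8 ± 0.840 CPM. It fell by 0.52 on the log2 scale in KO (adjusted p = 7.81e-17) and rose by 0.89 with PA/PC (adjusted p = 6.07e-25). *Smad3* showed a smaller fall (-0.14, adjusted p = 0.00419) and a rise of 0.50 (adjusted p = 4.59e-13).

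Of 11 genes for repressors and feedback factors, 6 were lower and 3 higher in KO, and 6 were higher and 3 lower with PA/PC (6 higher and 5 lower with scaling by library totals). The share called was 81.8% in both comparisons, beside 73.8% and 81.8% of all genes tested. The 4 of them with the highest levels, *Skil*, *Tgif1*, *Ppm1a* and *Ski*, were each lower in KO and higher with PA/PC. *Skil*, the gene of the Smad corepressor SnoN, was at 246.6 ± 11.0, 218.7 ± 7.50 and 417.8 ± 19.3 CPM for WT, KO and KO_PAPC. *Tgif1*, another corepressor gene, was at 222.5 ± 1.21, 179.5 ± 4.64 and 291.6 ± 2.22 CPM. *Ppm1a*, a Smad phosphatase gene, changed by -0.34 (adjusted p = 9.02e-14) and 0.63 (adjusted p = 7.84e-22), and *Ski* by -0.44 (adjusted p = 1.51e-15) and 0.59 (adjusted p = 5.72e-20).

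Of 11 target genes, 8 were lower and 1 higher in KO, and with PA/PC 6 were higher and 3 lower. Here too 81.8% were called in both comparisons, beside 73.8% and 81.8% of all genes tested. Among those with the highest levels, *Otx2*, a homeobox gene of the epiblast and forebrain, was at 209.1 ± 5.99, 182.5 ± 4.26 and 305.0 ± 5.41 CPM for WT, KO and KO_PAPC. *Eomes*, a T-box gene of the streak, changed by -0.62 in KO (adjusted p = 1.34e-13) and by 0.53 with PA/PC (adjusted p = 7.52e-12). *Hhex*, a gene of anterior endoderm, fell by 0.68 in KO (adjusted p = 4.34e-11) and was not called with PA/PC (log2 fold change of -0.14, adjusted p = 0.124), except with scaling by library totals (-0.30, adjusted p = 0.00115).

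The targets did not move as a unit under PA/PC. Chosen after their values were seen, *T* and *Fgf8*, genes of the primitive streak, had the largest rises (log2 fold changes of 5.87, adjusted p = 1.21e-28, and 3.93, adjusted p = 6.06e-26). The endoderm genes *Sox17* and *Foxa2*, chosen in the same way, had the largest falls (-2.95, adjusted p = 1.18e-17, and -2.31, adjusted p = 9.17e-15).

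**Figure D4:**
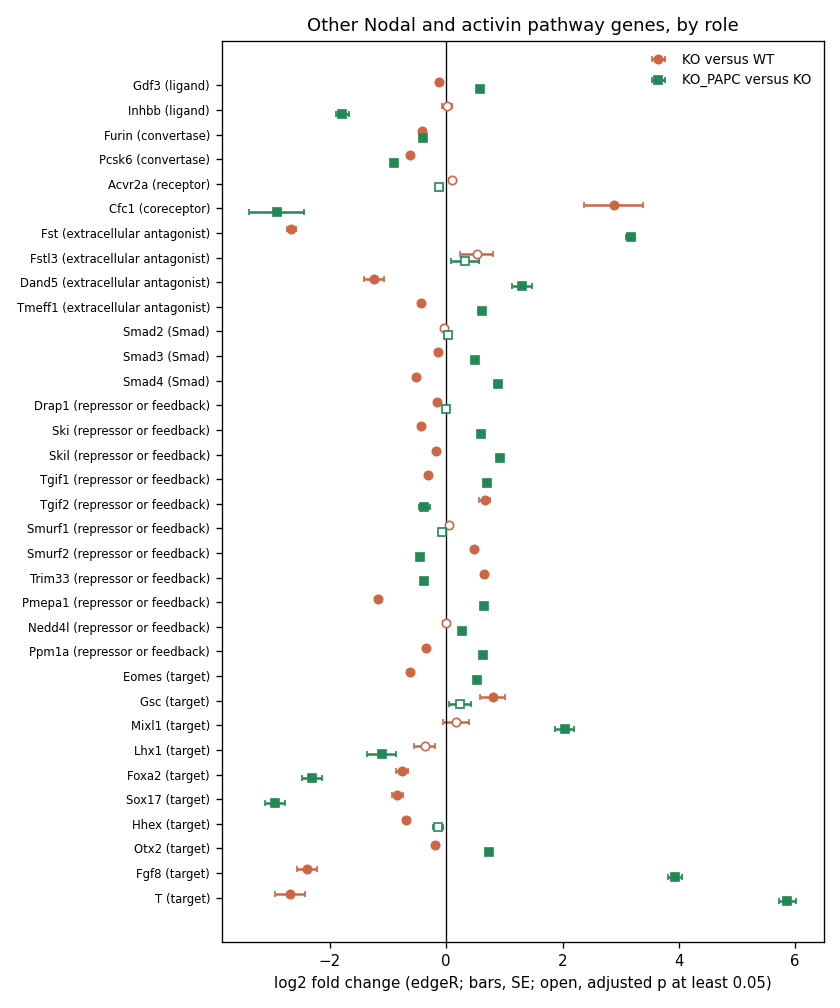
Log2 fold changes (x axis) of the other pathway genes reported here that could be tested, labelled with their role (y axis), in KO versus WT (circles) and KO_PAPC versus KO (squares), with bars for the SE and open symbols for genes with an adjusted p of at least 0.05. Most circles are left of 0, with *Cfc1* at 2.88 on the right, and squares reach from -2.95 for *Sox17* to 5.87 for *T*.

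Markers of the cell types that EBs can hold moved as well, and they are given as the range of their summed TMM-scaled CPM over the libraries of a group. The sum of 7 pluripotency markers was 3035 to 3091 in WT, 4481 to 4493 in KO and 3214 to 3352 in KO_PAPC, so it was highest where *Nodal*, *Lefty1*, *Tdgf1* and *Foxh1* were lowest. Of the 7, 6 were called between KO and WT, 5 higher and 1 lower, and with PA/PC 2 were higher and 5 lower. The sum of 5 neuroectoderm markers was 134.0 to 139.1 in WT, 46.6 to 49.8 in KO and 241.4 to 245.3 in KO_PAPC, in the same order as *Lefty1*. All 5 were called, 4 lower and 1 higher in KO and 5 higher with PA/PC. The sum of 10 primitive and visceral endoderm markers was 813.6 to 830.0 in WT, 428.4 to 436.2 in KO and 212.5 to 222.8 in KO_PAPC. This order is that of *Acvr1b*, *Smad7*, *Furin* and *Pcsk6*. In KO 7 of the 10 were lower and 3 higher (*Afp*, *Ttr* and *Apoa1*), and with PA/PC 9 were lower and 0 higher. *Lrp2*, at 361.1 CPM in WT and 178.9 CPM in KO, made up most of the KO_PAPC sum. It was the 1 marker not called with PA/PC, again at 178.9 CPM (edgeR adjusted p = 0.889). The 9 that fell with PA/PC did so by 3.33-fold (*Amn*) to 10.05-fold (*Cubn*), more than the sum shows. Fibroblast markers, 7 in all, summed to 41.6 to 43.1 in WT, 28.78 to 29.01 in KO and 14.6 to 16.0 in KO_PAPC. The defining markers *Col3a1*, *Dcn* and *Lum* had at most 3 counts per library in WT and KO. *Pdgfra* made up most of the WT sum, at 34.0 CPM. It was at 12.8 CPM in KO and, like the endoderm sum, was lowest in KO_PAPC. Of 4 fibroblast markers tested in KO versus WT, 2 were higher and 2 lower, and of 5 tested in KO_PAPC versus KO, 2 were higher and 2 lower. With PA/PC *Pdgfra* (12.8 to 2.53 CPM, adjusted p = 1.57e-21) and *Thy1* (11.1 to 5.21 CPM, adjusted p = 3.74e-13) fell, while *Col1a2* rose 1.67-fold (adjusted p = 4.11e-05). *Col3a1* rose from 2, 3 and 2 counts in KO to 17, 25 and 13 in KO_PAPC (adjusted p = 1.21e-07), so the falling sum did not hold for each fibroblast marker. The part of cell composition in the changes of the members was not tested.

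For 5 members the genes with the most similar pattern were sought among 9772 others (9773 for *Cer1*) with a mean of at least 10 CPM. Likeness was the root mean square difference between the centred means of log2(CPM + 1) over the 3 groups. *Stn1* was closest to *Nodal* (difference of 0.00689), with means of 32.9 ± 2.19 (SD, n = 3), 21.1 ± 0.881 and 32.0 ± 0.976 CPM for WT, KO and KO_PAPC, followed by *Mgat3* and *H13*. *Miip* was closest to *Lefty1* (difference of 0.0149), at 40.9 ± 0.588, 13.2 ± 0.752 and 54.9 ± 2.17 CPM, followed by *Emb* and *Bahcc1*. *Mfsd13a* was closest to *Lefty2* (difference of 0.00831), followed by *Ano10* and *9430015G10Rik*. *Acat2*, a cytosolic thiolase gene, was closest to *Tdgf1* (difference of 0.0190), at 75.7 ± 2.26, 60.1 ± 0.763 and 150.7 ± 3.29 CPM, followed by *Nampt* and *Ankrd6*. For *Cer1* the closest genes were *Polr2f*, *Pkp4* and *Gtf2ird1*, a near-flat pattern that follows from its few counts.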

How the data were processed

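RNA was measured by RNA-seq in 9 libraries of EBs, 3 per group as their titles say. The authors prepared unstranded TruSeq libraries and sequenced 51-base single-end reads. Per the labels, reads were mapped with STAR 2.7.2b to GRCm38 and counted with featureCounts 1.6.5. The study's methods describe an older pipeline for its comparison of KO with WT EBs. They describe STAR for a separate comparison of KO with and without PA/PC, and name no direct contrast of KO_PAPC with WT. The deposited counts are whole reads per Ensembl gene, not normalized, without reads that mapped to several places or genes. Without strand, antisense reads cannot be told apart. The number of per-sample columns left unused was 0, and 241 of 55471 IDs had no symbol in GENCODE M21.

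Each contrast was fitted on its own 6 libraries with edgeR 4.0.16 (quasi-likelihood test, TMM, filterByExpr, Benjamini-Hochberg over all genes tested, called under 0.05) in R 4.3.3. SE were derived from the F statistic. Printed CPM use TMM factors over all 9 libraries. Ratios were tested on the log2 scale with SciPy 1.17.1. The edgeR fit was first checked on simulated counts. Totals ranged from 27362913 to 28914312 counts. Replicate pairs differed beyond sampling noise.

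Alternatives were DESeq2 1.42.0, RLE factors, library totals, 2 other filters, a joint fit, a replicate block, a minimum fold change of 2 and each library left out. The 9 members and the lists were chosen with earlier results of these data known. By rule, all members were named, then every pathway gene except repressors and targets, of which the 4 with the highest mean CPM per role were named, and the 3 genes most like a member. Some items that these rules name are not reported here, but the counts over lists include them.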

Additional observations from a re-analysis of the deposited data

How the results depend on the processing

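Of 336 alternative values for the members, 306 had the same direction and the same call, 17 lost their call, all under the minimum fold change of 2, and 4 gained one. Under that minimum 1 member was called between KO and WT, 3 between KO_PAPC and KO and 0 between KO_PAPC and WT, with 6, 9 and 7 pathway genes and 1587, 3554 and 1335 genes in all. Of the gained calls, 3 came from library totals and 1 from leaving out KO_PAPC replicate 2, as given with *Nodal*, *Lefty2* and *Acvr2b*. The other 9 values, none of them called, changed sign. For *Lefty2* in KO_PAPC versus WT they were 0.00412 with DESeq2, 0.00412 with RLE factors, 0.00858 with genes of at least 1 count, 0.00191 in the joint fit, 0.00293 without WT replicate 3, 0.00411 without KO_PAPC replicate 1 and 0.000552 without KO_PAPC replicate 2. For *Acvr2b* in KO_PAPC versus KO they were 0.00109 with genes of at least 1 count and 0.0206 without KO_PAPC replicate 2. With 1 library left out these differences ranged from -0.0191 to 0.00411 for *Lefty2* and from -0.0420 to 0.0206 for *Acvr2b*. The cause was not tested. With 1 library left out, members called ranged from 8 to 8, 7 to 7 and 6 to 7 in the 3 comparisons, pathway genes from 27 to 29, 28 to 30 and 26 to 28, and all genes from 12382 to 12820, 13785 to 14137 and 11208 to 11654.

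No pairing of the libraries by replicate number was detected, though this check could miss shared culture rounds. Deviations of same-numbered libraries correlated at -0.107 to 0.177, and in 4 of 18 pairings of a library with another group the best correlation was with its own number. In the fit that took the number as a replicate block, 8, 7 and 6 members were called, 27, 28 and 28 pathway genes, and 12587, 13822 and 12223 genes in all, and no member changed its call. *Cer1* was tested only with genes of at least 1 count, where it was called in KO_PAPC versus WT (adjusted p = 0.0383), so that 7 members were called there; this call is not among the gained calls above. For genes at a few counts both depth and the filter limit the calls.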
